A study of Mus musculus with 2 samples.

Results

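Fabp3, Fabp4, Fabp5 and Fabp7 encode fatty acid binding proteins, small cytosolic proteins that hold a fatty acid inside a beta-barrel and carry it through the watery interior of a cell. The 4 genes were taken by their symbols from the 28000 genes of the count tables, and all 4 were found there. Members of the family are made in different cell types: Fabp3 is best known from heart and skeletal muscle, Fabp4 from adipocytes, capillary endothelium and macrophages, Fabp5 from the epidermis, and Fabp7 from radial glia and the glia of peripheral nerves. In developing skin they therefore mark cell types as well as lipid handling, and Fabp7 is a familiar gene of the Schwann cell precursors from which some melanocytes arise.

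The study sorted tdTomato-positive, DAPI-negative single cells from the trunk skin of mouse embryos at E15.5 and counted their RNA on the 10x Genomics platform. The values here come from 1 library per genotype. The HIRA WT library had the genotype TyrCre::Hira wt/wt:tdTomato and the HIRA KO library the genotype TyrCre::Hira fl/fl:tdTomato, on a mixed background close to C57BL/6J. The study processed its embryos individually. Both groups carried the Cre and the tdTomato reporter, and the KO group alone carried 2 floxed alleles of Hira, which encodes a chaperone of the histone variant H3.3. The Tyr promoter that drives the Cre is active in the melanocyte lineage and also in some glial and mesenchymal cells of neural crest origin, so Hira was targeted in more than melanoblasts.

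The unit of measurement was the unique molecular identifier (UMI), a tag that marks 1 captured RNA molecule, read from the 3′ end of the transcript. A level is given in CPM, the UMIs of a gene for each 1000000 UMIs of all cells of the same class in the same library. A molecule is counted once whatever its length, so CPM was not divided by transcript length. After filtering, 1540 cells of the WT library and 828 of the KO library remained, from totals of 7073939 and 5049514 UMIs, with 0 cell barcodes in common. There were no replicates, and every interval in brackets is a 95% interval of counting error only. A log2 ratio is the KO level over the WT level, so that a negative ratio means a lower level in the KO library.

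The libraries differed in more than their label. Xist, made from the inactive X chromosome, gave 16822 UMIs in the WT library and 23 in the KO library, and the sum of 4 Y-linked genes (Ddx3y, Eif2s3y, Uty and Kdm5d) was 1 and 592 UMIs. The WT library was thus female and the KO library male, and sex, embryo and genotype cannot be told apart in any comparison. Hira itself gave 82 UMIs in the WT library and 50 in the KO library. In melanoblast-like cells its level was 13.8 CPM (9.61 to 19.2) in the WT library and 3.53 CPM (0.728 to 10.3) in the KO library, with 35 and 3 UMIs and a log2 ratio of -1.97 (-4.31 to -0.30). For glial-like cells the UMIs were 18 and 9, and in mesenchymal-like cells 8 and 17, so a lower Hira level in the KO library was detectable at this depth in melanoblast-like cells and not in the other 2 classes. The exons removed are not given in the sources used here, and 3′ UMIs may still come from a transcript that lacks exons, so these counts check the label only in part.

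Cells were grouped into clusters without the 4 genes, and clusters were named by lists of marker genes. Melanoblast-like cells numbered 535 in the WT library and 139 in the KO library, glial-like cells 447 and 254, and mesenchymal-like cells 227 and 261. Macrophage-like cells numbered 146 and 35, mast cell-like cells 92 and 3, keratinocyte-like cells 12 and 81, adipocyte-like cells 33 and 2, and endothelial-like cells 21 and 8. Erythroid-like (5 and 19), pericyte-like (3 and 5), neutrophil-like (7 and 7) and unnamed cells (12 and 14) were few in both libraries. The mesenchymal-like class was made up differently in each library. In the WT library 172 of its 227 cells fell in a cluster led by Crabp1 and Twist2, whereas in the KO library 125 of its 261 cells fell in a cluster led by Mfap4 and Aspn.

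The genes of the 4 members lie at separate loci of the mouse genome (build GRCm38, GENCODE M21 annotation), with Fabp4 and Fabp5 close together on chromosome 3. Fabp3 (ENSMUSG00000028773) spans chr4:130308595-130315463 on the plus strand, and Fabp4 (ENSMUSG00000062515) spans chr3:10204088-10208576 on the minus strand. Fabp5 (ENSMUSG00000027533) spans chr3:10012548-10016607 and Fabp7 (ENSMUSG00000019874) spans chr10:57784881-57788450, both on the plus strand. Each has 4 exons, a layout shared across the family, and a coding sequence of 399, 396, 405 and 396 bases, in the order Fabp3, Fabp4, Fabp5 and Fabp7. The gene for the myelin protein Pmp2, another member of the family, lies between Fabp5 and Fabp4 at chr3:10179851-10183929.

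The coding sequences are related but far from identical. Identity was highest between Fabp3 and Fabp7 at 66.7% and lowest between Fabp5 and Fabp7 at 55.3%. Of 396 aligned coding positions, 147 (37.1%) held the same base in all 4 genes. The longest exact run shared by a pair of member transcripts was 20 bases, between Fabp3 and Fabp7, so the 4 genes can be told apart by reads longer than that. The most alike window of 60 coding bases is shown because it gives the scale of the likeness that separates one member's counts from another's. It runs from coding base 49 to 108 in Fabp3, Fabp4 and Fabp7 and from 55 to 114 in Fabp5, crosses the first intron, and has 34 bases, in capitals, that are the same in all 4 genes. Its ends on the genome are chr4:130308826-130312325 for Fabp3, chr3:10206088-10208463 for Fabp4, chr3:10012694-10015005 for Fabp5 and chr10:57785057-57785540 for Fabp7, each read 5′ to 3′ on the strand of the gene.
Fabp3: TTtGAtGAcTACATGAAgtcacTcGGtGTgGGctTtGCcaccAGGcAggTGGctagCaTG
Fabp4: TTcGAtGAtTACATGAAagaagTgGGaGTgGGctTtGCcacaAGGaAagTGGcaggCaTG
Fabp5: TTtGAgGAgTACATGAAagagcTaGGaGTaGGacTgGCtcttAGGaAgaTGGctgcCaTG
Fabp7: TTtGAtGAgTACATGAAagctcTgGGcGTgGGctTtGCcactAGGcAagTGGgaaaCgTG

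Processed copies elsewhere in the genome are much closer than the members are to each other. The pseudogene Fabp3-ps1 matches Fabp3 over 402 bases at 99.3% identity and was counted as a gene of its own, with 9 UMIs in the WT library and 2 in the KO library. Fabp5 has 5 processed pseudogenes of at least 90% identity, the closest of them Gm6166 at 98.3%, and none of the 5 was among the counted genes. Counts of Fabp3 and Fabp5 are uncertain to the extent that reads match such a copy.

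Fabp3, the heart and muscle form, was close to absent. It gave 17 UMIs in the WT library, a level of 2.41 CPM (1.40 to 3.85), and 6 in the KO library, 1.20 CPM (0.441 to 2.61). Of the 17 WT UMIs, 14 lay in melanoblast-like cells, at 5.52 CPM (3.02 to 9.26), in 11 of 535 cells. The KO melanoblast-like cells held 1 UMI, 1.18 CPM (0.0298 to 6.55), and the log2 ratio of -2.23 had an interval from -7.63 to 0.49, so a difference was not detectable at this depth. Glial-like cells held 2 and 3 UMIs in the WT and KO libraries, mesenchymal-like cells 1 and 1, and macrophage-like cells 0 and 1. The other classes held 0 UMIs in both libraries. For the 92 WT mast cell-like cells, 0 UMIs still allow a level of up to 10.1 CPM, the level that 3 UMIs would give, and for the 81 KO keratinocyte-like cells up to 3.94 CPM. The melanoblast-like cells of the WT library stood first among the classes with a UMI, and their interval overlapped that of the next class.

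**Figure D1:**
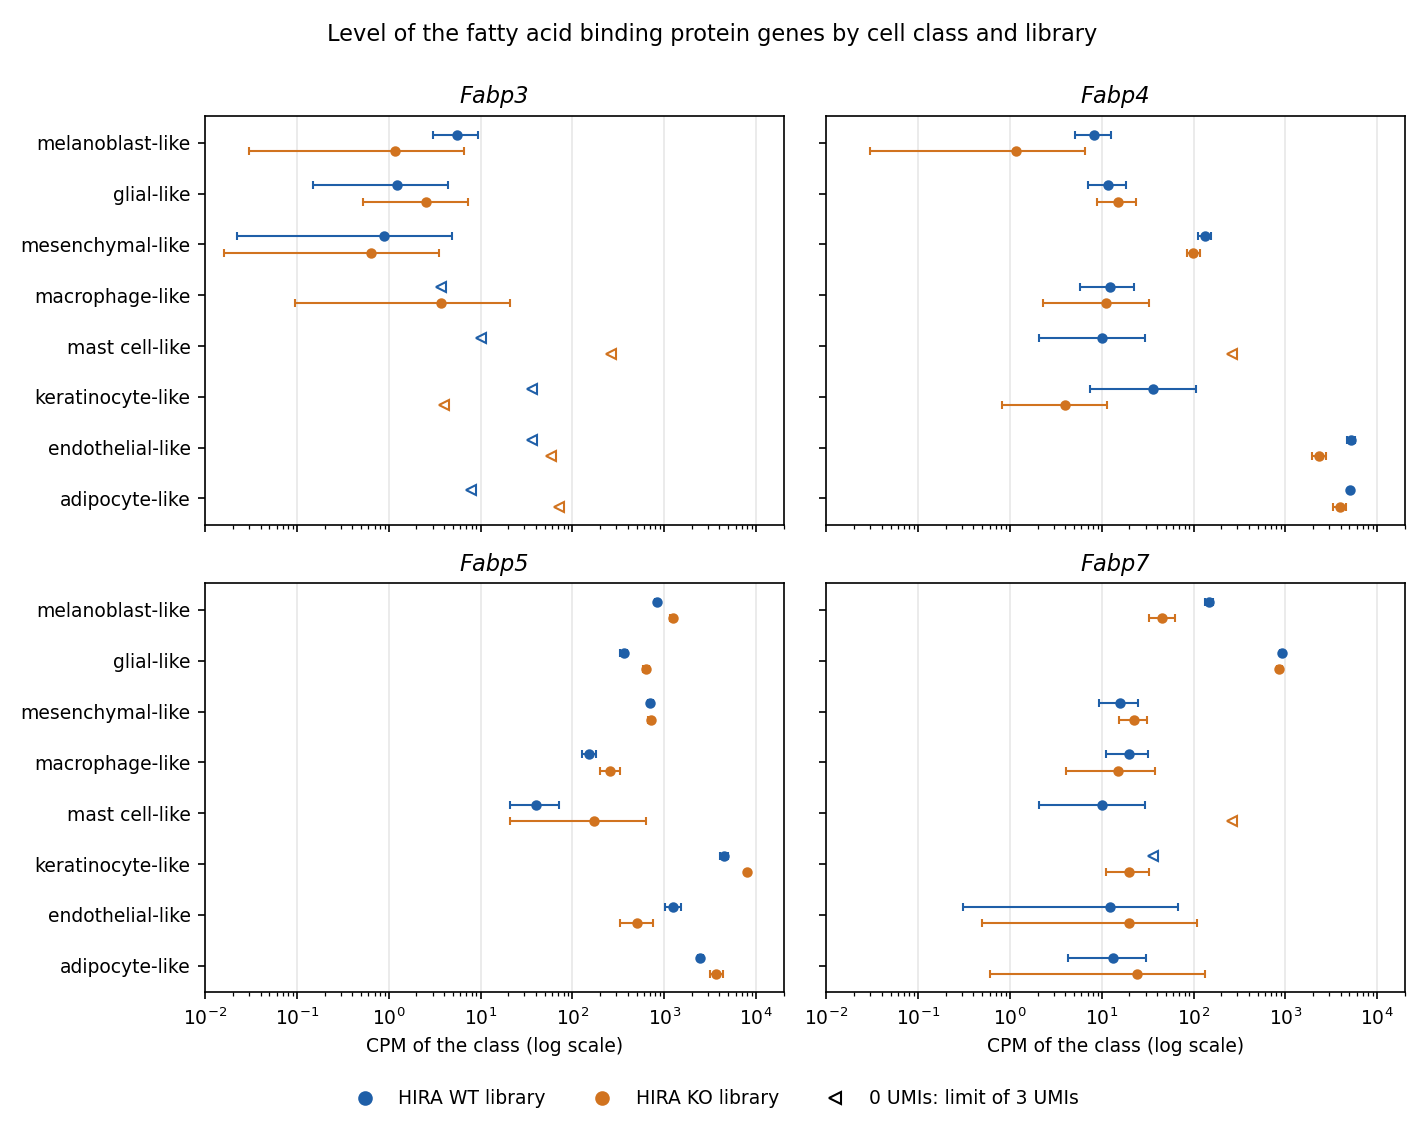
Level of each gene in 8 cell classes, in CPM of the class on a log axis, for the HIRA WT library (blue) and the HIRA KO library (orange); bars are 95% intervals of counting error, and open triangles mark classes with 0 UMIs at the level that 3 UMIs would give. Fabp4 stood highest in endothelial-like and adipocyte-like cells, Fabp5 in keratinocyte-like cells and Fabp7 in glial-like cells, while Fabp3 had its highest level, 5.52 CPM, in WT melanoblast-like cells.

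Fabp4, the adipocyte form, which delivers fatty acids to and from the lipid droplet, was concentrated in 2 classes. In the WT library adipocyte-like cells held 5104 CPM (4880 to 5336) and endothelial-like cells 5208 CPM (4725 to 5726), and these intervals overlapped. In the KO library the order was adipocyte-like at 3924 CPM (3347 to 4573), from 2 cells, and then endothelial-like at 2348 CPM (1947 to 2808), from 8 cells. Both classes stood far above the rest, and the next classes, mesenchymal-like in the WT library and pericyte-like and mesenchymal-like in the KO library, were at 133 CPM or less. Adipocyte-like cells supplied 75.3% (73.6 to 77.0) of all Fabp4 UMIs of the WT library and 34.9% (30.6 to 39.4) of those of the KO library. The level over all cells was 366 CPM in the WT library and 94.1 CPM in the KO library, which held 33 and 2 adipocyte-like cells.

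In endothelial-like cells the Fabp4 log2 ratio was -1.15 (-1.45 to -0.85), which rests on 21 WT and 8 KO cells. A Fabp4 UMI was found in 76.2% (52.8 to 91.8) of the WT cells and 50.0% (15.7 to 84.3) of the KO cells, and the median cell held 20 UMIs in the WT library and 3.5 in the KO library. A single KO cell held 73 of the 120 UMIs, 60.8% of the total. The intervals of the shares overlapped, and the ratio of the levels depended on very few cells. The endothelial marker list was found in full in both libraries, with 8 of 8 genes, and its 8 genes summed to 3366 CPM in the WT library and 4149 CPM in the KO library. Cldn5 was the most abundant of them in both.

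In mesenchymal-like cells Fabp4 stood at 133 CPM (113 to 156) in the WT library and 99.7 CPM (84.6 to 117) in the KO library, a log2 ratio of -0.42 (-0.75 to -0.08). In cells without a keratinocyte marker UMI it was -2.96 (-6.03 to -1.08), from 2 UMIs in 28 KO cells. Few cells of the class carried it. A UMI was found in 14.5% (10.2 to 19.8) of the cells in the WT library and 13.8% (9.85 to 18.6) in the KO library, and the 10% of cells with the most UMIs held 93.4% and 94.2% of all Fabp4 UMIs of the class. Melanoblast-like cells, which are not a known source of Fabp4, had shares of 3.93% in the WT library and 0.719% in the KO library, at median depths of 4343 and 5654 UMIs per cell against 4447 and 5436 in the mesenchymal-like class. After every cell was thinned to 2000 UMIs at random, with 9 WT and 5 KO shallower cells left out, the mesenchymal-like shares were 8.72% and 8.59%. Detection in the class as a whole was thus alike in the 2 libraries and above the melanoblast-like share. Its clusters differed before thinning, with WT and KO shares of 38.2% and 16.0% in the cluster led by Mfap4 and Aspn. The shares were 4.76% and 15.2% in the cluster led by Mfap5 and Ly6a, and 11.0% and 10.7% in that led by Crabp1 and Twist2.

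The clusters inside the mesenchymal-like class differed in direction, in one case on very few cells. In the cluster led by Mfap4 and Aspn, Fabp4 was at 620 CPM (510 to 746) in 34 WT cells and 129 CPM (103 to 159) in 125 KO cells, a log2 ratio of -2.27 (-2.69 to -1.85). In the cluster led by Mfap5 and Ly6a it was at 12.4 CPM (0.315 to 69.4), from 1 UMI in 21 WT cells, and at 175 CPM (126 to 236), from 42 UMIs in 33 KO cells. Those 42 UMIs lay in 5 cells, and 1 of them held 33. Levels differed little in the cluster led by Crabp1 and Twist2, at 45.3 CPM (32.3 to 61.6) and 39.4 CPM (25.5 to 58.2). The mean of the 3 cluster log2 ratios was 0.45, the reverse of the class, and it rests on the cluster with 1 WT UMI. The levels averaged equally over the 3 clusters were 226 CPM in the WT library and 114 CPM in the KO library, a log2 ratio of -0.98. A list of 9 adipocyte markers fell along with Fabp4 in this class, from 166 UMIs (145 CPM, 5 of 9 genes) in the WT library to 142 UMIs (90.7 CPM, 4 of 9 genes) in the KO library. Its most abundant gene was Car3 in both, and Cidec, Plin1, Ucp1 and Retn were at 0 in both. Adipocyte-like cells held 0.543 Fabp4 UMIs per UMI of this list in the WT library and, in 2 cells, 0.429 in the KO library. Subtracting Fabp4 at that ratio would leave 54.2 CPM in WT and 60.7 CPM in KO mesenchymal-like cells, a reversed log2 ratio of 0.16. The same subtraction with the endothelial list, at 1.55 Fabp4 UMIs per list UMI in the WT library and 0.566 in the KO library, would leave 64.0 and 69.6 CPM, a ratio of 0.12. Both values depend on the unlike ratios of the source cells in the 2 libraries. The ratios do not hold in other classes, since the adipocyte list would carry 244% of the Fabp4 UMIs of WT macrophage-like cells and the endothelial list 766% of those of WT melanoblast-like cells. Whether Fabp4 was carried over was not tested.

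In the remaining classes Fabp4 was low. Glial-like cells held 11.6 CPM (7.01 to 18.2) in the WT library and 15.1 CPM (8.93 to 23.8) in the KO library, and macrophage-like cells 12.2 CPM (5.87 to 22.5) and 11.2 CPM (2.31 to 32.8). Melanoblast-like cells held 8.28 CPM (5.12 to 12.7) and 1.18 CPM (0.0298 to 6.55), with 21 and 1 UMIs. These low levels did not separate one class from the next in the WT library, where the intervals of neighbours overlapped from the mesenchymal-like class downward. The mesenchymal-like overlap was with the neutrophil-like class, from 1 UMI. The mesenchymal-like interval lay clear of the glial-like, macrophage-like and melanoblast-like ones.

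Fabp5, the epidermal form, which binds fatty acids and retinoic acid and can pass them to the nuclear receptor PPAR-delta, was the most widespread member. In the WT library its level fell from keratinocyte-like cells at 4482 CPM (4038 to 4961) through adipocyte-like cells at 2468 CPM (2313 to 2631) to endothelial-like cells at 1244 CPM (1014 to 1510). Melanoblast-like cells followed at 831 CPM (796 to 867), then mesenchymal-like cells at 706 CPM (658 to 756) and glial-like cells at 361 CPM (332 to 391). None of these 6 neighbours overlapped within the WT library. Below them came macrophage-like cells at 153 CPM (127 to 182) and mast cell-like cells at 40.4 CPM (20.9 to 70.5), with small classes between that overlapped their neighbours.

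In the KO library keratinocyte-like cells were again first, at 8038 CPM (7838 to 8243), then adipocyte-like cells at 3709 CPM (3148 to 4341), and then melanoblast-like cells at 1234 CPM (1160 to 1311). These 3 did not overlap. From melanoblast-like cells downward each class overlapped the next: pericyte-like cells at 866 CPM (566 to 1269), mesenchymal-like cells at 714 CPM (672 to 757), glial-like cells at 638 CPM (593 to 685), endothelial-like cells at 509 CPM (332 to 746), unnamed cells at 437 CPM (274 to 661) and macrophage-like cells at 258 CPM (201 to 326). The order of the larger classes was therefore the same in both libraries, with endothelial-like cells as the exception. The melanoblast-like overlap was with the 5 pericyte-like cells, from 26 UMIs. The melanoblast-like interval lay clear of the mesenchymal-like and glial-like intervals. Over all cells Fabp5 was at 718 CPM in the WT library and 1875 CPM in the KO library, a log2 ratio of 1.38. Keratinocyte-like cells supplied 7.33% (6.63 to 8.08) of the Fabp5 UMIs of the WT library and 65.2% (64.3 to 66.2) of those of the KO library. Most Fabp5 UMIs of the KO library thus came from 81 cells.

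Within classes, Fabp5 was higher in the KO library in 4 of the 6 classes with at least 50 UMIs over both libraries and 5 cells in each. Adipocyte-like cells, with 2 KO cells, also had a higher level there, with a log2 ratio of 0.59 (0.33 to 0.83). The log2 ratio was 0.57 (0.46 to 0.68) in melanoblast-like cells, a 1.49-fold higher level, and 0.82 (0.66 to 0.98) in glial-like cells, a 1.77-fold higher level. It was 0.75 (0.31 to 1.19) in macrophage-like cells and 0.84 (0.69 to 1.00) in keratinocyte-like cells, the latter from 12 WT and 81 KO cells. In mesenchymal-like cells it was 0.02 (-0.12 to 0.15), and in endothelial-like cells -1.29 (-1.97 to -0.66), from 102 UMIs in 21 WT cells and 26 UMIs in 8 KO cells. Of those 26 UMIs, 12 lay in 1 KO cell. The intervals of the mesenchymal-like and endothelial-like ratios did not reach those of the other 4 classes. Scaling by the trimmed mean of M-values (TMM), which sets the bulk of genes equal, gave 1.09 in keratinocyte-like and -1.49 in endothelial-like cells and kept the sign in all 6 classes. Macrophage-like, keratinocyte-like and endothelial-like cells are not among the lineages named above for the Cre. Their Hira UMIs, WT before KO, were 6 and 3, 3 and 14, and 2 and 1. Whether Hira was lost in these 3 classes was not tested.

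The share of cells with a Fabp5 UMI gave a like picture, but part of it went with depth. It was 86.4% (83.2 to 89.2) of WT and 99.3% (96.1 to 99.98) of KO melanoblast-like cells, 60.2% (55.5 to 64.7) and 85.0% (80.0 to 89.2) of glial-like cells, and 81.5% (75.8 to 86.3) and 85.8% (81.0 to 89.8) of mesenchymal-like cells. Mast cell-like cells of the WT library, which are not a known source of Fabp5, had a share of 9.78% at a median depth of 2762.5 UMIs. Erythroid-like cells of the KO library, with a median depth of 7295 UMIs, had a share of 52.6% (28.9 to 75.6), which became 5.26% after thinning. After thinning the shares were 69.9% and 87.8% in melanoblast-like cells, with 10 WT and 0 KO shallower cells left out, and 44.5% and 62.6% in glial-like cells, with 38 and 8 left out. They were 63.3% and 59.8% in mesenchymal-like cells. At equal depth the higher shares of the KO library remained in melanoblast-like and glial-like cells and not in mesenchymal-like cells.

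Fabp5 is abundant in keratinocytes, and UMIs of keratinocyte markers were more frequent in the other classes of the KO library. The list of 9 markers, with Krt10 as its most abundant gene, gave 173 UMIs (68.2 CPM) in WT melanoblast-like cells and 379 UMIs (446 CPM) in KO melanoblast-like cells, with 8 of 9 genes found and Trp63 at 0 in both. In glial-like cells it gave 139 UMIs (85.2 CPM, 8 of 9, Dsp at 0) and 629 UMIs (526 CPM, 9 of 9), and in mesenchymal-like cells 59 UMIs (51.6 CPM, 6 of 9, with Krt15, Trp63 and Perp at 0) and 701 UMIs (448 CPM, 9 of 9). Macrophage-like cells had 35 UMIs of the list (42.8 CPM, 7 of 9, with Krt5 and Trp63 at 0) in the WT library and 92 UMIs (344 CPM, 8 of 9, Trp63 at 0) in the KO library. The melanoblast-like cells with a marker UMI were 24.5% in the WT library and 87.1% in the KO library. The rise was of like size in melanoblast-like cells, glial-like cells and mesenchymal-like cells, with log2 ratios of 2.71, 2.63 and 3.12. The erythroid and neutrophil lists rose there too, while the mast cell list fell. The erythroid list went from 61.9 to 943 CPM in melanoblast-like cells, with a UMI in 99.3% of the KO cells, and the neutrophil list from 37.1 to 216 CPM. Their log2 ratios in the same 3 classes were 3.93, 3.68 and 3.81 for the erythroid list and 2.55, 2.76 and 2.75 for the neutrophil list. The mast cell list went from 121 to 18.8 CPM in melanoblast-like cells, and its log2 ratios in these classes were -2.68, -2.24 and -2.64.

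In keratinocyte-like cells there were 0.228 Fabp5 UMIs per UMI of the marker list in the WT library and 0.223 in the KO library. RNA carried over at that ratio would make up 1.87% of the Fabp5 UMIs of WT melanoblast-like cells and 8.07% of those of KO melanoblast-like cells, and would leave 815 and 1134 CPM, a log2 ratio of 0.48. In glial-like cells it would make up 5.38% and 18.4% and leave 342 and 520 CPM, a log2 ratio of 0.61. In mesenchymal-like cells it would make up 1.67% and 14.0% and leave 694 and 614 CPM, a log2 ratio of -0.18. In macrophage-like cells it would make up 6.39% and 29.8% and leave 143 and 181 CPM, a log2 ratio of 0.34 in place of 0.75. In KO erythroid-like cells, at 134 CPM (78.1 to 215), it would make up 78.8% of the 17 Fabp5 UMIs. The ratio became lower in each of the 4 classes compared here, which follows by construction from the larger carried share in the KO library. The subtraction takes the marker ratio of keratinocyte-like cells as fixed, and whether Fabp5 was carried over in this way was not tested.

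Cells without any UMI of the keratinocyte list were few in the KO library and are a selected subset. In the 404 WT and 18 KO melanoblast-like cells of that kind Fabp5 was at 831 CPM (790 to 873) and 1121 CPM (914 to 1361), a log2 ratio of 0.43 (0.13 to 0.72). In the 330 WT and 36 KO glial-like cells it was at 321 CPM (289 to 356) and 639 CPM (508 to 793), for a log2 ratio of 0.99 (0.63 to 1.34). In mesenchymal-like cells of that kind the ratio was -0.04 (-0.43 to 0.33). In macrophage-like cells the ratio reversed to -0.63 (-2.93 to 0.96), from 5 KO cells with 3 Fabp5 UMIs.

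**Figure D2:**
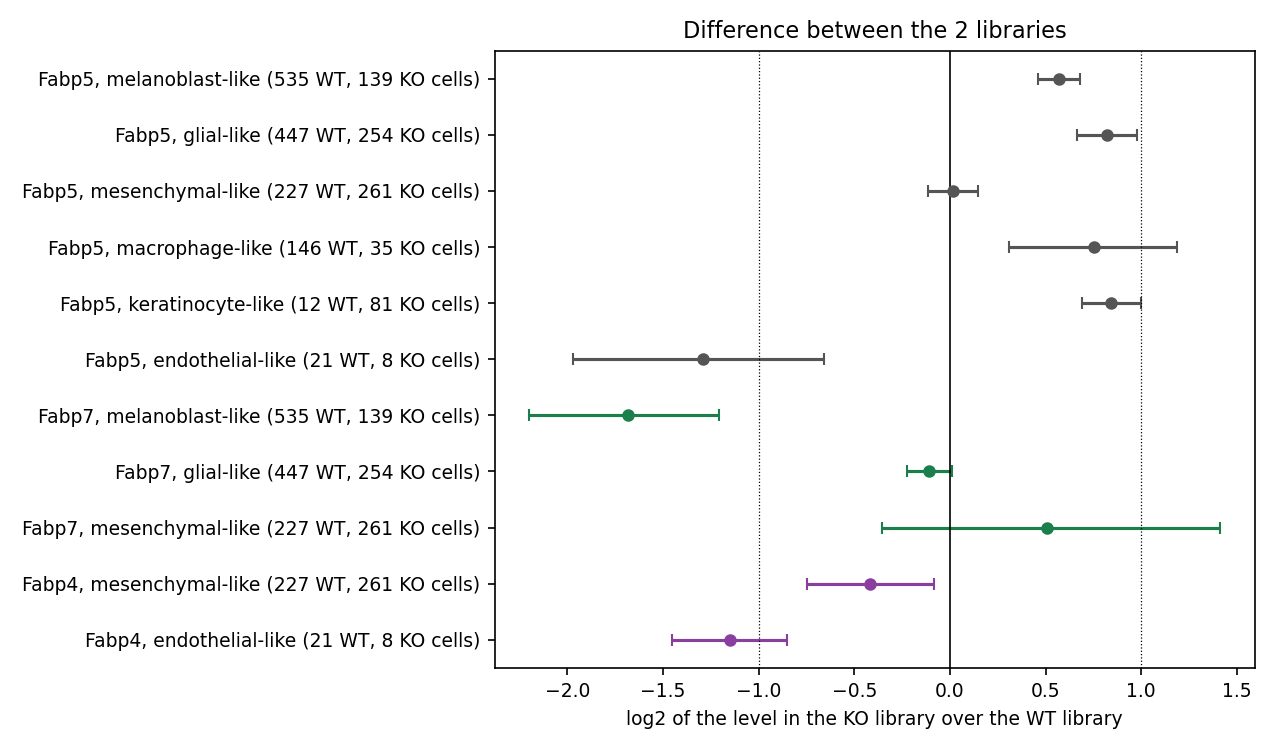
Log2 of the KO level over the WT level for 11 combinations of gene and cell class (Fabp5 grey, Fabp7 green, Fabp4 purple), with 95% intervals of counting error and dotted lines at a 2-fold difference. Fabp7 in melanoblast-like cells lay wholly beyond 2-fold lower in the KO library, at -1.68, and Fabp5 in mesenchymal-like cells lay at 0.02; the Fabp4 mesenchymal-like value was positive as a mean of cluster ratios and after subtraction of carried UMIs, and -0.98 from levels averaged over clusters.

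Clusters inside the classes showed where Fabp5 differed. In the melanoblast-like cluster led by Ptgds and Mlana it was at 825 CPM (778 to 875) in 344 WT cells and 1275 CPM (1179 to 1378) in 93 KO cells, and in the cluster led by Dct, Ube2c and Ccnb1 at 698 CPM (636 to 765) and 1243 CPM (1098 to 1401). The cluster led by Rrm2 and Pbk stood apart, at 1020 CPM (934 to 1112) in 82 WT cells and 1065 CPM (898 to 1255) in 18 KO cells, a log2 ratio of 0.06 (-0.21 to 0.33). In the KO library the 3 clusters overlapped, whereas in the WT library none of them did. All 5 glial-like clusters had a higher level in the KO library, with log2 ratios from 0.46 (0.20 to 0.71) in the cluster led by Sostdc1 to 1.12 (0.35 to 1.87) in the cluster led by Gm29865, Grb14 and Dkk2. In the cluster led by Pou3f1, 1 KO cell held 62 of the 233 Fabp5 UMIs. Of the mesenchymal-like clusters, those led by Crabp1 and by Mfap4 differed little, with ratios of 0.11 and -0.04, and the cluster led by Mfap5 and Ly6a had 386 CPM (262 to 548) in 21 WT cells and 724 CPM (620 to 839) in 33 KO cells.

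Fabp7, the brain and glial form, which has a preference for long polyunsaturated fatty acids, was highest in glial-like cells of both libraries. Glial-like cells held 921 CPM (875 to 968) in the WT library and 855 CPM (803 to 909) in the KO library, a log2 ratio of -0.11 (-0.22 to 0.01). The interval for the class as a whole included 0, but the ratio was -0.23 in thinned cells and -0.66 (-0.999 to -0.329) in the 330 WT and 36 KO cells without a keratinocyte marker UMI. Glial-like cells supplied 78.2% (76.3 to 80.1) of the Fabp7 UMIs of the WT library and 91.2% (89.4 to 92.8) of those of the KO library. A UMI was found in 79.4% (75.4 to 83.1) of WT and 78.7% (73.2 to 83.6) of KO glial-like cells, and in 72.1% and 67.1% after thinning, at median depths of 3372 and 4208 UMIs.

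Melanoblast-like cells were next, and here the libraries differed. Fabp7 was at 147 CPM (133 to 163) in the WT library, from 374 UMIs, and at 45.9 CPM (32.6 to 62.7) in the KO library, from 39 UMIs. The log2 ratio was -1.68 (-2.20 to -1.21), a 3.21-fold higher level in the WT library. The share of cells with a UMI was 37.4% (33.3 to 41.6) in the WT library and 18.7% (12.6 to 26.2) in the KO library, and in 22.7% and 7.91% after thinning. Mesenchymal-like cells, taken as a class that should lack the gene, had shares of 5.73% (3.08 to 9.59) and 8.43% (5.36 to 12.5), or 0.917% and 3.13% after thinning, and levels of 15.7 CPM (9.33 to 24.9) and 22.4 CPM (15.6 to 31.1). The WT melanoblast-like level was clear of this background. The KO melanoblast-like level was above it by a narrower margin, and its interval overlapped that of the next class in the order, the unnamed cells with 2 UMIs. This margin rests in part on 1 KO cell, which held 10 of the 39 UMIs. Without the cells called as doublets the log2 ratio was -2.05.

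The other classes lay at or near the background. Macrophage-like cells held 19.6 CPM (11.2 to 31.8) in the WT library and 14.9 CPM (4.07 to 38.3) in the KO library, and adipocyte-like cells of the WT library 13.1 CPM (4.26 to 30.6). Keratinocyte-like cells held 0 UMIs in the WT library, which allows up to 36.1 CPM, and 19.7 CPM (11.0 to 32.5) in the KO library. The highest value outside the glial-like and melanoblast-like cells was 39.7 CPM (4.81 to 143), from 2 UMIs in the unnamed cells of the KO library.

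All 3 melanoblast-like clusters shared the direction. In the cluster led by Ptgds and Mlana Fabp7 was at 137 CPM (118 to 159) in the WT library and 55.8 CPM (37.1 to 80.6) in the KO library. In the cluster led by Rrm2 it was at 176 CPM (141 to 216) and 29.8 CPM (8.12 to 76.3), and in the cluster led by Dct, Ube2c and Ccnb1 at 147 CPM (119 to 179) and 32.7 CPM (13.1 to 67.4). The log2 ratios were -1.30 (-1.93 to -0.72), -2.56 (-4.47 to -1.15) and -2.16 (-3.52 to -1.07), and their intervals overlapped one another.

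Melanoblast-like and glial-like cells are both of neural crest origin, so glial marker genes were counted in the melanoblast-like class. The list of 8 glial markers gave 649 UMIs (256 CPM; 237 to 276) in the WT library, with 7 of 8 genes found and Dhh at 0, and 213 UMIs (251 CPM; 218 to 287) in the KO library, with 8 of 8 found. A marker UMI was found in 66.4% of WT and 73.4% of KO cells. The list therefore stood at the same level in both libraries, with a log2 ratio of -0.03 (-0.26 to 0.20), while Fabp7 did not. In glial-like cells there were 0.563 Fabp7 UMIs per UMI of the list in the WT library and 0.550 in the KO library. At that ratio the glial marker UMIs of the melanoblast-like cells would go with 366 Fabp7 UMIs in the WT library, where 374 were counted, and with 117 in the KO library, where 39 were counted. The ratio does not hold in other classes, since it would carry 235% and 221% of the Fabp7 UMIs of WT and KO mesenchymal-like cells and 563% of those of WT endothelial-like cells. Whether Fabp7 was carried over was not tested.

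Melanoblast-like cells without any UMI of the glial list showed the same direction. In 180 such WT cells there were 107 Fabp7 UMIs, a level of 138 CPM (114 to 167), and in 37 such KO cells there was 1 UMI, 5.75 CPM (0.146 to 32.0). The log2 ratio was -4.59 (-9.91 to -2.08). Fabp7 in WT melanoblast-like cells was thus nearly as high in cells with no glial marker UMI as in the class as a whole, and the size of the ratio depended on which KO cells were counted. Without any UMI of the keratinocyte list the ratio was -1.16 (-2.62 to -0.02), from 275 UMIs in 404 WT cells and 6 UMIs in 18 KO cells.

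Glial-like clusters differed more from each other in Fabp7 than the libraries did. The cluster led by Sostdc1 was low, at 219 CPM (180 to 264) in 120 WT cells and 126 CPM (89.9 to 173) in 59 KO cells, a log2 ratio of -0.79 (-1.36 to -0.25). Cells of the cluster led by Pou3f1 were high in both, at 1184 CPM (997 to 1394) and 1203 CPM (1084 to 1331), as was the cluster led by Pcdh20 and Gap43, at 1253 CPM (1164 to 1347) and 1077 CPM (971 to 1192), with a ratio of -0.22 (-0.40 to -0.04). The cluster led by Pcdh20 and Cdc25c was at 1460 CPM (1321 to 1610) and 1148 CPM (993 to 1319), a ratio of -0.35 (-0.60 to -0.10), and the cluster led by Gm29865, Grb14 and Dkk2 at 753 CPM (622 to 904) and 640.2 CPM (446 to 890). Fabp7 was thus lowest in the cluster led by Sostdc1 in both libraries, and 3 of the 5 clusters were lower in the KO library with intervals that did not include 0. The make-up of the class differed, with 34 of 447 WT cells and 59 of 254 KO cells in the cluster led by Pou3f1. The mean of the 5 cluster log2 ratios was -0.31, below the interval around -0.11, and the levels averaged equally over clusters gave -0.22.

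**Figure D3:**
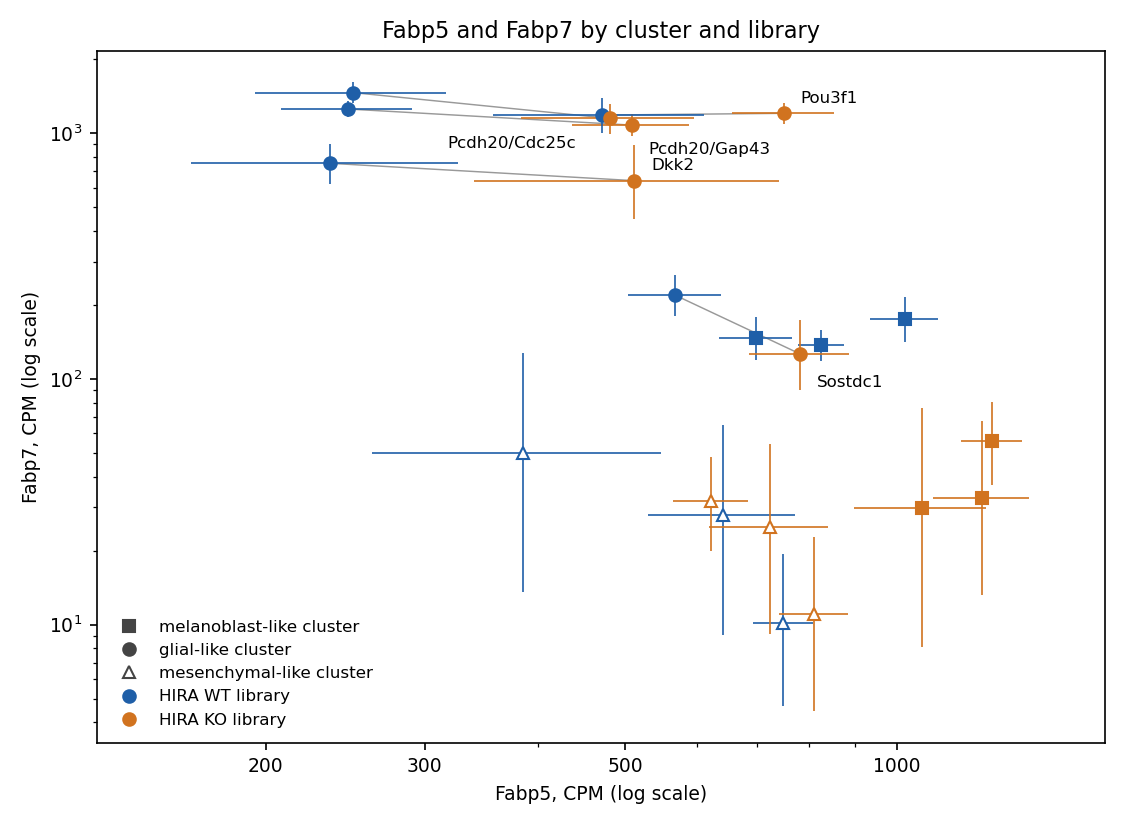
Fabp5 level (horizontal, CPM on a log axis) against Fabp7 level (vertical, the same unit and a log axis) in each melanoblast-like, glial-like and mesenchymal-like cluster of the WT (blue) and KO (orange) library, with 95% intervals of counting error; grey lines join the same glial-like cluster in both libraries, and labels give its leading genes. Glial-like clusters moved to the right in the KO library, and the melanoblast-like clusters moved down.

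In the WT library the glial-like cluster led by Sostdc1 had the most Fabp5 and the least Fabp7. Its Fabp5 level of 568 CPM (504 to 639) overlapped that of the cluster led by Pou3f1. The cluster led by Pcdh20 and Cdc25c had the most Fabp7, which overlapped that of the cluster led by Pcdh20 and Gap43. Their Fabp5 levels, 250.0 CPM (195 to 316) and 246 CPM (208 to 290), were low beside that of the cluster led by Sostdc1. The cluster led by Gm29865, Grb14 and Dkk2 showed no such contrast, with 236 CPM (165 to 326) of Fabp5 and an intermediate Fabp7 level. Nor did the cluster led by Pou3f1, where both were high, Fabp5 at 472 CPM (357 to 611) and Fabp7 at 1184 CPM. In the KO library the cluster led by Sostdc1 again had the most Fabp5, 781 CPM (686 to 886), which overlapped the 749 CPM (656 to 852) of the cluster led by Pou3f1 with its 1 cell of 62 UMIs, and the latter also had the most Fabp7, 1203 CPM.

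Single cells of equal depth were read for both genes. Of 409 WT glial-like cells thinned to 2000 UMIs, 27.6% had a UMI of both, 16.9% of Fabp5 alone, 44.5% of Fabp7 alone and 11.0% of neither. The product of the separate shares was 32.1%, above the share with both. Fabp5 was found in 38.3% of the cells with Fabp7 and in 60.5% of the cells without it. In 246 KO glial-like cells 39.4% had both, against a product of 42.0%, and Fabp5 was found in 58.8% of cells with Fabp7 and 70.4% of cells without. The share with both genes was thus below the product of the shares in both libraries, by a smaller margin in the KO library. No interval was computed for these margins, so whether they exceed counting error was not tested. The class pools clusters with unlike levels of both genes, and the reading was not made within single clusters.

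In melanoblast-like cells the same reading gave no such gap. Of 525 WT cells 15.2% had both genes against a product of 15.8%, and Fabp5 was found in 67.2% of cells with Fabp7 and 70.7% of cells without. Of 139 KO cells 7.19% had both against a product of 6.95%. Most melanoblast-like cells with Fabp7 therefore also had Fabp5 at this depth.

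Across all genes, a difference of at least 2-fold in these sums was uncommon. In melanoblast-like cells 5429 genes had at least 50 UMIs over both libraries, of which 95 (1.75%) were at least 2-fold lower and 89 (1.64%) at least 2-fold higher in the KO library. Fabp5 and Fabp7 reached 50 UMIs there, and 1 of them, Fabp7, was lower past that fold, with 0 higher. In glial-like cells 63 of 5678 genes (1.11%) were lower and 89 (1.57%) higher, and 0 of the same 2 members passed in either direction. In mesenchymal-like cells 64 of 5209 genes (1.23%) were lower and 180 (3.46%) higher, and 0 of the 3 members with 50 UMIs, namely Fabp4, Fabp5 and Fabp7, passed. The number of members is too small to be read against these shares.

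Among the other genes of the intracellular lipid-binding family, Crabp1 and Crabp2, which bind retinoic acid, and Rbp2, which binds retinol, reached 50 UMIs in a library. Mesenchymal-like cells held 1564 CPM of Crabp1 in the WT library and 828 CPM in the KO library, for a log2 ratio of -0.92 (-1.02 to -0.81). Within the cluster that it leads the levels were 1995 CPM (172 cells) and 1890 CPM (103 cells), a ratio of -0.08 (-0.19 to 0.03). The mean of the 3 cluster log2 ratios was 0.39, the reverse of the class, and rests in part on a cluster with 4 WT UMIs. The levels averaged equally over clusters were 721 and 712 CPM, a ratio of -0.02, and the ratio was -0.22 with each library clustered alone, where 125 of the 261 KO cells were left unnamed. In 3 other classes Crabp1 was higher in the KO library, at 11.4 and 30.6 CPM in melanoblast-like cells, 35.5 and 52.7 CPM in glial-like cells, and 80.7 and 172 CPM in macrophage-like cells. The 2 macrophage-like clusters differed, at 255 and 218 CPM in the cluster led by Plac8 and Cd74 and at 13.5 and 140 CPM in the cluster led by Pf4 and C1qc, where 1 KO cell held 14 of the 22 UMIs. The list of 7 mesenchymal markers rose in the same 3 classes, with 7 of 7 genes found in each library and Col1a2 the most abundant. It went from 64.3 to 238 CPM in melanoblast-like cells, from 859 to 1316 CPM in glial-like cells and from 252 to 1016 CPM in macrophage-like cells. The log2 ratios were 1.89, 0.61 and 2.01, and their part in the Crabp1 ratios was not tested. In the unnamed cells Crabp1 was lower in the KO library, at 1995 CPM in 12 WT cells and 715 CPM in 14 KO cells, a log2 ratio of -1.48 (-2.08 to -0.91).

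Crabp2 was at 116 and 66.1 CPM in glial-like cells, for a log2 ratio of -0.81 (-1.21 to -0.42), and at 42.0 and 53.7 CPM in mesenchymal-like cells. In melanoblast-like cells it was at 0.788 and 12.9 CPM, from 2 and 11 UMIs, a log2 ratio of 4.04 (1.84 to 7.25). Rbp2 was found mainly in keratinocyte-like cells, with 4 UMIs (48.2 CPM) in the WT library and 77 UMIs (101 CPM) in the KO library. Pmp2, Fabp9 and Fabp12 gave 0 UMIs in both libraries, and Fabp1, Fabp2, Fabp6 and Rbp7 at most 1 UMI in either.

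Fatty acid binding proteins act beside the enzymes and receptors of lipid handling, and 5 lists of such genes, 75 in all, were read in the 3 largest classes. In melanoblast-like cells 22 of the 75 had at least 50 UMIs, 0 were at least 2-fold higher and 3 at least 2-fold lower in the KO library, beside 1.64% higher and 1.75% lower of all 5429 genes. Their median log2 ratio was -0.18, beside -0.02 over all genes. In glial-like cells 26 qualified, with 0 higher (1.57% of all genes), 1 lower (1.11% of all genes) and a median of -0.14 beside -0.03. In mesenchymal-like cells 26 qualified, with 0 higher (3.46% of all genes), 0 lower (1.23% of all genes) and a median of -0.10 beside -0.02. The lists went both ways there, with a median of 0.60 for synthesis and desaturation (7 genes). It was -0.55 for uptake and activation (2 genes), -0.40 for nuclear receptors and PPAR targets (5 genes), -0.14 for beta-oxidation and -0.10 for lipid droplets. Among the 3 lower genes in melanoblast-like cells was Mgll, which cleaves monoglycerides, at 103 CPM in the WT library and 38.8 CPM in the KO library, a log2 ratio of -1.41 (-1.98 to -0.88). The others rest on few UMIs: Elovl6, which lengthens fatty acids, went from 18.5 to 5.88 CPM (-1.66; -3.34 to -0.33), and the lipase inhibitor G0s2 from 18.5 to 7.06 CPM (-1.39; -2.91 to -0.16). In glial-like cells the lower gene was G0s2, from 99.9 to 48.5 CPM, a ratio of -1.04.

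The 2 genes of each list with the most UMIs over both libraries give the scale of lipid handling in these cells. For fatty acid uptake and activation, Acsl3 and Acsl5 led in melanoblast-like cells, with Acsl3 at 39.8 CPM in the WT library and 21.2 CPM in the KO library. Vldlr and Acsl3 led in glial-like cells, and the lipase Lpl, which frees fatty acids from lipoproteins, led in mesenchymal-like cells with 147 and 86.9 CPM, ahead of Slc27a3. For synthesis and desaturation, Scd2 and Elovl1 led in the 3 classes, and Scd2 was at 90.7 and 121 CPM in melanoblast-like, 177 and 192 CPM in glial-like and 157 and 247 CPM in mesenchymal-like cells. The log2 ratios of Scd2, a desaturase, were 0.42 (0.07 to 0.76), 0.11 (-0.14 to 0.37) and 0.66 (0.40 to 0.92), so no difference was detectable in glial-like cells.

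For beta-oxidation, Ech1 led in the 3 classes by that sum, though Hadhb was above it in the KO library in melanoblast-like and glial-like cells. Ech1 was at 65.4 and 47.1 CPM in melanoblast-like, 105 and 62.8 CPM in glial-like and 169 and 135 CPM in mesenchymal-like cells, followed by Hadhb in the first 2 classes and Acaa2 in mesenchymal-like cells. For lipid droplets, Plin3 and Mgll led in melanoblast-like cells, Plin3 and G0s2 in glial-like cells, and Plin2 and Plin3 in mesenchymal-like cells. Plin3, a droplet coat protein, was at 106 and 84.7 CPM, 80.9 and 84.5 CPM, and 66.5 and 62.0 CPM in these classes. For nuclear receptors and PPAR targets, Nr1h2 and Rara led in melanoblast-like cells, Rara and Rxrg in glial-like cells, and Angptl4 and Rara in mesenchymal-like cells, where Angptl4 was at 73.5 and 46.0 CPM.

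Genes with a like pattern were sought over 34 sums of a cluster in a library, each of at least 10 cells. These sums share 2 libraries and differ in depth, so the correlations are descriptions. Among 5713 genes Fabp7 was matched most closely, by Gm12688 (r = 0.91), Gpr17 (0.91), Shisa4 (0.91), Il1rap (0.91) and Sox5 (0.90). Fabp4 was matched by Cd36 (0.76), Car3 (0.73), Fam195a (0.67), Pabpc4 (0.67) and Cav1 (0.67), and Fabp5 by Higd1a (0.72), Tanc1 (0.71), Ass1 (0.69), Jup (0.69) and Hspb1 (0.67). For Fabp3, with 17 UMIs in the WT library and 6 in the KO library, the closest were Rras2 (0.57), Fam178b (0.55), Ccz1 (0.53), Chmp6 (0.51) and Cgrrf1 (0.50), which at such counts says little.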

How the data were processed

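The deposited matrices hold raw UMI counts per gene and cell that the authors made with Cell Ranger 2.2.0 on a custom mm10 reference. Cells with at least 100 genes, at most 40000 UMIs and at most 10% mitochondrial UMIs were kept, 1540 of 1546 WT and 828 of 846 KO barcodes. Putative doublets called by Scrublet (9 WT, 6 KO) were kept. Both libraries together were scaled to 10000 UMIs per cell and log-transformed in scanpy 1.11.5 (Python 3.11.15, igraph 0.11.9, scikit-image 0.26.0, pandas 2.3.3, scipy 1.17.1, numpy 2.4.6, anndata 0.12.19), and 1978 variable genes, 30 principal components, 15 neighbours and Leiden resolution 1 gave 21 clusters. The lipid-binding family, Hira, sex-linked and reporter genes, and some genes named in the article were held out of clustering and of the marker lists. The marker lists kept others that the article or its supplement names, among them Mitf, Kit, Twist2 and Dpt. A cluster took the name of a list with at least 3 markers found in at least 10% of its cells and raised by a log2 of at least 1. The cluster of 26 unnamed cells had 5 of 7 mesenchymal markers raised but was left unnamed. It was the only cluster with a marker of another list among its leading genes. A difference from the study may come from these names.

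UMIs were summed per class and library. Intervals are exact at 95%: Poisson for CPM, Clopper-Pearson for shares, and conditional binomial for ratios. No hypothesis test was made, since each genotype had 1 library. The floor at 0 UMIs is 3 UMIs. Cells were thinned to 2000 UMIs at random with a fixed seed. The computation of ratios and of thinning was tested on simulated Poisson counts. These lack the uneven spread of UMIs between cells seen here. Genes with at least 50 UMIs over both libraries of a class were counted past 2-fold. Named genes were the 4 members, relatives with at least 50 UMIs in a library (1 of them is not reported here), Hira, the 2 most abundant genes of each lipid list and those past 2-fold, and the 5 genes most correlated with each member, in log2(CPM + 10) over genes with at least 200 UMIs. Xist, the Y-linked genes and the marker genes named as leading or most abundant served as checks. Members and lists were chosen with earlier results of these data known.

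Coding sequences were read from GRCm38 with the GENCODE M21 annotation, which holds 27645 (98.7%) of the 28000 gene identifiers, and were aligned with MAFFT 7.526 and searched for copies with BLAST 2.17.0. Alternatives were other cell and gene minima, Leiden resolutions of 0.5 and 2, clustering each library alone, removal of doublets or shared barcodes, thinning, means over cells, the mean of cluster log2 ratios, and TMM scaling (edgeR 4.0.16, R 4.3.3). Another 6, which leave out cells with keratinocyte or glial marker UMIs, subtract carried Fabp5 or Fabp4 UMIs, or average levels equally over clusters, were chosen after seeing the data. Figures were drawn with matplotlib 3.10.9.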

Additional observations from a re-analysis of the deposited data

Results flagged for a closer look

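In each case below the log2 ratio of the KO to the WT level differed between cell classes by more than its counting intervals. With 1 library per genotype the difference between classes was not tested. For Fabp5 the ratio was 0.57 in melanoblast-like, 0.82 in glial-like, 0.75 in macrophage-like and 0.84 in keratinocyte-like cells, against -1.29 in endothelial-like cells. Macrophage-like, keratinocyte-like and endothelial-like cells are not among the lineages named for the Cre. The macrophage-like ratio was -0.63 in cells without a keratinocyte marker UMI, from 5 KO cells, and 0.34 after subtraction of carried UMIs. In endothelial-like cells 1 KO cell held 12 of the 26 Fabp5 UMIs. For Crabp1 it was 1.42 in melanoblast-like, 0.57 in glial-like and 1.09 in macrophage-like cells, against -0.92 in mesenchymal-like cells. The mesenchymal-like class was made up differently in each library, and its Crabp1 ratio was -0.08 within the cluster that Crabp1 leads, -0.02 with levels averaged equally over clusters and 0.39 as a mean of cluster ratios. The macrophage-like clusters had ratios of -0.23 and 3.36, the latter with 14 of 22 KO UMIs in 1 cell. What the difference comes from was not tested for either gene.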

How the results depend on the processing

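No paired analysis was possible because the 2 libraries make a single pair, which leaves no spread between pairs. Leaving out shared barcodes is not counted here, since 0 were shared. Over 12 log2 ratios, 137 alternative values were computed, of which 109 lay inside the counting interval of the reported value, 23 lay outside it on the same side or near 0, and 5 reversed. Some of the 109 repeat the reported value because the alternative left the cells of the class unchanged. Leiden resolution 0.5 did so in melanoblast-like, glial-like, keratinocyte-like and endothelial-like cells. Such repeats say nothing on how stable a ratio was. Over 6 counts of genes, 29 of 48 alternative values lay within 1.5-fold of the reported count and 19 did not. The 8 shares of cells had 1 alternative each, and all 8 values lay outside the counting interval. Where the alternative's construction does not show it, the cause was not tested.

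The 5 reversals were Fabp5 in macrophage-like cells without a keratinocyte marker UMI (-0.63, from 5 KO cells), as the mean of cluster log2 ratios, Fabp4 (0.45) and Crabp1 (0.39) in mesenchymal-like cells, where a cluster with 1 and 4 WT UMIs enters, and Fabp4 there less UMIs carried with adipocyte (0.16) or endothelial (0.12) markers. That mean also gave Fabp5 0.33 in mesenchymal-like and Fabp7 -0.31 in glial-like cells. Levels averaged equally over clusters gave Fabp5 0.28 and Fabp4 -0.98 in mesenchymal-like cells.

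Thinned cells gave Fabp5 log2 ratios of 0.76 in melanoblast-like and -0.17 in mesenchymal-like cells and Fabp7 -0.23 in glial-like cells. Cells without a keratinocyte marker UMI gave Fabp5 0.43 in melanoblast-like and 0.99 in glial-like cells, Fabp7 -1.16 in melanoblast-like and -0.66 in glial-like cells, and Fabp4 -2.96 in mesenchymal-like cells, the last from 2 UMIs in 28 KO cells. Subtracting UMIs carried with keratinocyte markers gave Fabp5 0.61 in glial-like and -0.18 in mesenchymal-like cells. Melanoblast-like cells without a glial marker UMI gave Fabp7 -4.59, and clustering each library alone gave Fabp4 -0.83 in mesenchymal-like cells, where 125 of the 261 KO cells were left unnamed.

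Thinning lowered the shares of cells with a UMI, WT before KO: Fabp5 to 69.9% and 87.8% in melanoblast-like and 44.5% and 62.6% in glial-like cells, and Fabp7 to 22.7% and 7.91% in melanoblast-like and 72.1% and 67.1% in glial-like cells.

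Counts of genes past 2-fold changed with the UMI minimum, and so did their share of the genes read: higher genes in melanoblast-like cells were 5.95%, 1.64% and 0.719% at 10, 50 and 200 UMIs. With at least 200 UMIs, higher and lower genes numbered 14 and 13 in melanoblast-like, 18 and 10 in glial-like, and 49 and 9 in mesenchymal-like cells. With at least 10 UMIs they numbered 577 and 610, 652 and 414, and 846 and 441. Thinned cells gave 34 and 63 in melanoblast-like cells, 51 higher in glial-like cells, and 70 and 28 in mesenchymal-like cells. A minimum of 500 genes per cell removed none of the 139 KO melanoblast-like cells, but the new clusters left 81 of them unnamed, and the other 58 gave 193 lower genes. Clustering each library alone, with those 125 KO cells unnamed, gave 79 higher genes in mesenchymal-like cells.

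Some alternatives gave no value because fewer than 5 cells of a library were left: glial-like cells without a glial marker UMI (13 WT, 4 KO), keratinocyte-like and endothelial-like cells without a keratinocyte marker UMI, and macrophage-like and endothelial-like cells with each library clustered alone (0 KO cells). Few UMIs limit Fabp3 throughout, and few cells limit each class of under 35 cells.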
